A study of Mus musculus with 8 samples.

Results

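The comparison described here set CD4 T cells of mice without the aryl hydrocarbon receptor gene Ahr (KO) against those of wild type mice (WT), and it took in all 8 arrays of the series. The members were chosen by the array titles, 4 KO and 4 WT, and by the probe set names: 22626 of the 22690 probe sets remained once the 64 Affymetrix controls were removed. Each probe set reads 1 stretch of a transcript with several short probes. The KO animals were AHR ko mice backcrossed to C57BL/6 and the WT animals were C57BL/6. All were female and 8 to 12 weeks old. Each genotype had 2 arrays from mice injected intraperitoneally with 10 µg/kg TCDD, a dioxin that binds the receptor with high affinity, and 2 from mice injected with DMSO, both in corn oil. Spleens were taken 24 h later, CD4 T cells were sorted by flow cytometry, and RNA pooled from 4 animals went on each MOE430A array. Per the labels, the paired arrays within a group are biological duplicates. The sources used here give neither the knockout allele nor the antibodies and purity of the sort. The labels name no restriction of the deletion to a cell type, and KO and WT are entered as separate strains, not as littermates.

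The aryl hydrocarbon receptor is a transcription factor held in the cytoplasm until a ligand binds. It then enters the nucleus, pairs with Arnt and binds DNA at a short core motif near genes such as Cyp1a1, Cyp1b1, Ahrr and Tiparp. Among CD4 T cells it is known best from cells that make interleukin 17 or interleukin 22 and from regulatory cells. A splenic CD4 sort can also take up cells other than T cells, since mouse plasmacytoid and some conventional dendritic cells can carry CD4 on their surface.

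Values are log2 levels after robust multi-array averaging (RMA), so a difference of 1 is a factor of 2. Differences are KO minus WT from a limma model with treatment as a covariate. A probe set was called when its p, adjusted over all 22626 by the Benjamini-Hochberg method (BH), was under 0.05. Arrays of a group correlated at 0.967 to 0.992 and arrays of different genotype at 0.937 to 0.989. Principal component 1, with 52.1% of the variance, placed KO arrays from -36.2 to -5.20 and WT arrays from -2.04 to 49.2. WT DMSO replicate 2 and WT TCDD replicate 2 lay far from all the others on it, at 49.2 and 40.4. The same arrays had the lowest actin 3′ minus 5′ differences, a measure of RNA integrity and amplification, at 2.90 and 3.30. WT TCDD replicate 1 had the highest actin difference of all arrays, 4.56. The KO arrays averaged 3.66 ± 0.15 and the WT arrays 3.62 ± 0.71 on that measure (SD over 4 arrays), with an exact two-sided permutation p of 0.914. The free-text description of WT TCDD replicate 1 names the knockout, whereas its title, source and strain name the wild type. On principal component 1 that array was the WT array nearest the KO arrays, at -2.04 against -5.20 for KO DMSO replicate 1. It correlated most with WT DMSO replicate 1, at 0.9882. With the KO arrays it correlated at 0.9645 to 0.9784, and with the WT arrays numbered 2 at 0.9637 and 0.9666. Which label is right was not tested. WT TCDD replicate 1 was kept as WT, and the calls of each gene group are also given without it.

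The targeted gene itself gave no check of the genotype. The first of the Ahr probe sets read 7.08, 6.60, 6.49 and 6.79 on the KO arrays (DMSO 1 and 2, then TCDD 1 and 2, the order used throughout) and 6.29, 6.11, 6.29 and 6.14 on the WT arrays. All KO values lay above all WT values, and the difference of 0.53 had an adjusted p of 0.0972 (limma, BH). The second differed by 0.04 (adjusted p 0.915, limma, BH), with overlapping genotypes. No source used here places these probes against the deletion, so neither reading bears on whether the gene was lost.

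Of the 15 measured genes on the AhR pathway list, Tiparp alone had a called probe set, and it fell. Tiparp encodes an ADP-ribosyltransferase that is induced by the receptor and represses it. Its promoter is shown because it holds the receptor's core motif. The 250 bases before the RefSeq start site (GRCm38.p6, chr3:65528197-65528446, plus strand) follow, with 1 match to the core, CACGC on this strand, in capitals 170 bases before the start.
Tiparp: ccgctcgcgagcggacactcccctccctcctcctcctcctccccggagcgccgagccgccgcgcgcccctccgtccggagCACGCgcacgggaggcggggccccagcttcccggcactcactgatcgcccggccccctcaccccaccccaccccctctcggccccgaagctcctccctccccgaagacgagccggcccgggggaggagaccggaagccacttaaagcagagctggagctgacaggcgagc
The core was searched as GCGTG and its reverse complement CACGC. It occurs in 28.2% of all 32851 windows of this length. The share was 39.6% of the 101 windows of genes called higher and 46.8% of the 77 windows of genes called lower. The full set includes genes that the array did not measure, so these shares cannot be compared directly. Enrichment was not tested. A match describes letters only and does not show binding.

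The called Tiparp probe set read 6.44, 6.35, 6.34 and 6.41 in KO and 7.62, 7.42, 7.35 and 7.73 in WT. The KO values spanned 0.10, and the lowest WT value was 0.91 above the highest KO value. The difference was -1.15 (SE 0.10, adjusted p 0.0106, limma, BH), and it was -1.12 in the DMSO arrays and -1.16 in the TCDD arrays. The other Tiparp probe sets differed by -0.46 (adjusted p 0.0663) and -0.19 (adjusted p 0.792, both limma, BH), so the fall was called on 1 probe set of 3. The probe set at -0.19 was the brightest of them, at 8.43 to 9.63, and its genotypes overlapped. Without WT TCDD replicate 1 the difference at the called probe set was -1.22 and still called. The cytochrome P450 gene Cyp1a1, the most used marker of receptor activity, differed by 0.01, Ahrr, the receptor's repressor, by -0.07, Nqo1, a quinone reductase, by -0.10, and the partner Arnt by -0.10 at both of its probe sets. The 3 Cyp1b1 probe sets differed by -0.12 to 0.01. None of these passed the test. The list's median difference was -0.03, beside 0.005 over all 12393 measured genes. The largest difference on it was that of the transglutaminase Tgm2, 1.85, which did not pass (adjusted p 0.0597, limma, BH).

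Genes of antigen presentation, lysosomes and dendritic and myeloid cells made up most of the largest called rises in KO. Among genes with a probe set of their own, 21 of the 25 largest called rises were on those lists. Each gene was taken at its called probe set with the largest difference, which need not be the brightest one used for list medians. That ranking leaves out 4 globin probe sets annotated to several genes, which rose by 2.23 to 3.33 and include the largest called rise. Of the 25 largest falls ranked in the same way, 3 were on the lists of mRNA decay, splicing, chromatin or nuclear transport. The former lists hold 13, 34, 20, 20 and 34 of the 12393 measured genes, with some genes on more than 1. The latter hold 43, 61, 64 and 44. All lists were chosen with earlier results of these data known, so these counts describe the ranking and test nothing. The test called 199 probe sets (0.88% of those tested), of which 125 rose (0.552%) and 74 fell (0.327%). The rises covered 101 named genes (0.815% of measured genes) and the falls 69 (0.557%), with 0 genes called in both directions. The rises ran from 0.38 to 3.33 with a median of 1.08, and 72 were at least 2-fold. The falls ran from -0.42 to -2.07 with a median of -0.88, and 24 were at least 2-fold. All 199 had KO and WT values that did not overlap. Over all probe sets, 5.67% had every KO array above every WT array and 6.67% had every KO array below. The smallest adjusted p, 0.00735, belonged to the cathepsin gene Ctsl. At an unadjusted p under 0.05, 4349 probe sets (19.2%) passed.

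How many probe sets passed depended on single arrays. Leaving out 1 array gave 12 to 140 rises and 0 to 70 falls. With a KO array removed, the total was 103 or 131 (DMSO 1 or 2) and 41 or 14 (TCDD 1 or 2). With a WT array removed, it was 210 or 36 (DMSO 1 or 2) and 41 or 14 (TCDD 1 or 2). Without both WT arrays numbered 2, 0 probe sets passed in limma, with 3126 at an unadjusted p under 0.05 and a lowest adjusted p of 0.101. The differences moved less than the calls did. Without those arrays the median difference was 1.02 over the called rises and -0.74 over the called falls. Of the 125 rises 33 were still called without WT TCDD replicate 1, whose labels conflict, and of the 74 falls 6, among them 12 of the 25 largest rises and 5 of the 25 largest falls. The median difference over the called rises was then 1.06 and over the called falls -0.88. In the fit without the treatment covariate 631 probe sets passed (2.79%), among them 197 of the 199.

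**Figure D1:**
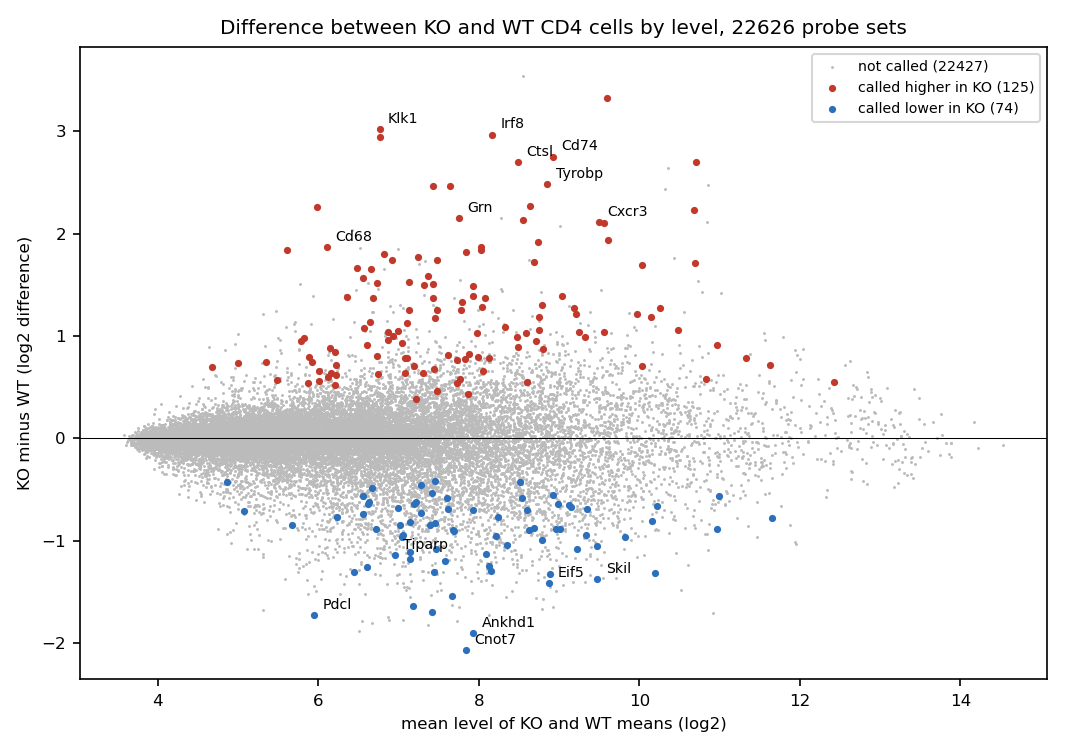
KO minus WT difference (vertical axis, log2) against the mean level of each probe set (horizontal axis, log2) for 22626 probe sets. Grey points did not pass the test, red points are the 125 called higher and blue points the 74 called lower. The called rises reach 3.33 and the called falls -2.07, at levels across the range.

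Plasmacytoid dendritic cells make type I interferon, and their identity depends on the transcription factors Tcf4, Irf8 and Spib. Of the 20 measured genes on the list of their markers, 8 rose (Bst2, Irf8, Klk1, Ly6d, Plac8, Pltp, Spib and Tcf4) and 0 fell. The list's median difference was 0.78, and 17 of the 20 genes lay above 0. The mean level of the list was 8.04, 8.11, 7.97 and 8.37 in KO and 7.25, 6.77, 7.22 and 6.95 in WT, so the lowest KO array was above the highest WT array by more than the spread within either genotype. Siglech, a defining marker of these cells, was not analysed here. In pooled sorted cells, more cells of a type and more RNA per cell cannot be told apart.

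Irf8 read 9.61, 9.75, 9.13 and 10.10 in KO and 7.44, 6.07, 6.92 and 6.28 in WT, a difference of 2.97 (SE 0.34, adjusted p 0.0189, limma, BH). Every KO array was at least 1.69 above every WT array, and the WT arrays numbered 2 were the lowest. Without these arrays the Irf8 difference was 2.47, and without WT TCDD replicate 1 it was 3.09 and no longer called (adjusted p 0.056, limma, BH). A second Irf8 probe set rose by 0.96. Klk1, a tissue kallikrein, read 8.14, 8.65, 7.68 and 8.63 in KO and 6.03, 4.78, 5.22 and 4.98 in WT. That was a difference of 3.02 (SE 0.31, adjusted p 0.0146, limma, BH). It was the largest rise of any called probe set with a single gene symbol. The suffix _x_at of that probe set marks probes that can match related sequences, and kallikrein genes are close copies of each other. A called Klk1 probe set without that suffix rose by 2.95, and another that carries it rose by 0.83.

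Plac8 is a small cysteine-rich protein of lymphoid and myeloid cells. It read 10.67, 10.49, 10.26 and 10.88 in KO and 8.76, 8.43, 8.69 and 8.66 in WT, a difference of 1.94 (SE 0.15, adjusted p 0.0106, limma, BH). Spib, an Ets family factor, read 7.13, 7.57, 7.38 and 7.85 in KO and 5.80, 5.63, 5.79 and 6.08 in WT. Its difference was 1.66 (SE 0.15, adjusted p 0.0106, limma, BH). The WT values of both genes were tight, and the gap between genotypes exceeded the range within either. Tcf4, the E protein E2-2, rose by 1.80, Bst2, an antiviral membrane protein, by 1.82, Ly6d, a surface marker of lymphoid progenitors, by 1.59, Pltp, a phospholipid transfer protein, by 1.50, and Bcl11a, a zinc finger factor that acts in dendritic and B cell development, by 1.57. The chemokine receptor gene Ccr9 and D13Ertd608e had differences of 2.15 and 3.54 that did not pass (adjusted p 0.0536 and 0.0682, limma, BH). The difference was 0.07 for Irf7 and 0.10 for Tlr9, both working parts of the interferon response in these cells. Without WT TCDD replicate 1, 4 genes of the list were called, and without both WT arrays numbered 2, 0 were.

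Class II molecules present peptides to CD4 T cells and are made by dendritic cells, B cells and macrophages. Of the 13 measured genes on the class II list, 7 rose and 0 fell. The rising genes encode chains of the presenting molecules (H2-Aa, H2-Ab1 and H2-Eb1), their invariant chain (Cd74), the peptide editors H2-DMa and H2-Oa, and the lysosomal thiol reductase Ifi30. The other 6 did not pass and differed by -0.17 to 0.23. They comprise Ciita, the coactivator that switches these genes on (-0.04), the factors Rfx5, Rfxap and Rfxank that bind their promoters, the editor chain H2-DMb2 and the protease Ctss. The median of the list was 1.03.

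Class II promoters share a Y box, bound by NF-Y, and it is shown for the 3 rising genes whose window held it. The letters searched were CTGATTGG and the reverse complement CCAATCAG. Each stretch below is the 150 bases before the RefSeq start site (GRCm38.p6), with the match in capitals: H2-Aa at chr17:34287824-34287973 on the minus strand, H2-Eb1 at chr17:34305717-34305866 on the plus strand, and H2-Oa at chr17:34092229-34092378 on the plus strand.
H2-Aa: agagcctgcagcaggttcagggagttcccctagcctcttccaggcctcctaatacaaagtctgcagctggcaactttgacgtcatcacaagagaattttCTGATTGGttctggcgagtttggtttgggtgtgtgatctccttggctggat
H2-Eb1: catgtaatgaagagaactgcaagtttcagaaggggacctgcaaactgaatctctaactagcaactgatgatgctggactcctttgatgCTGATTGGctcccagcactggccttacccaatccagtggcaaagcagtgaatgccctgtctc
H2-Oa: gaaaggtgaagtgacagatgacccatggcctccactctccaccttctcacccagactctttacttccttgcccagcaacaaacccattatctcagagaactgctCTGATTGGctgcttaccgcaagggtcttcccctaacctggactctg
The match began 51, 62 and 46 bases before the start. Searched over the 250 bases before the start, these 8 letters were found in 3.83% of all windows. They were in 12.9% of windows of genes called higher and in 3.90% of windows of genes called lower. All windows again include genes that the array did not measure, so these shares cannot be compared directly. Of the 7 rising class II genes 5 had a window that was searched, and 3 of these held the match. The promoters of Cd74 and H2-Ab1 were not searched.

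H2-Aa read 11.39, 11.59, 11.23 and 11.99 in KO and 9.94, 9.44, 9.81 and 10.14 in WT, a difference of 1.72 (SE 0.19, adjusted p 0.0189, limma, BH). H2-Eb1 read 10.55, 11.06, 10.36 and 11.57 in KO and 9.28, 8.76, 9.36 and 9.35 in WT, a difference of 1.70 (SE 0.27, adjusted p 0.0443, limma, BH). H2-Oa read 8.39, 8.68, 8.67 and 9.33 in KO and 7.72, 7.18, 7.38 and 7.32 in WT, a difference of 1.37 (SE 0.20, adjusted p 0.0374, limma, BH). For all of them KO TCDD replicate 2 was the highest array and WT DMSO replicate 2 the lowest. Cd74 had the widest KO spread of the named genes, at 9.72, 10.70, 9.42 and 11.39 against 8.08, 7.03, 7.62 and 7.48 in WT. Its difference of 2.75 (SE 0.45, adjusted p 0.0476, limma, BH) was 2.46 without the WT arrays numbered 2. H2-Ab1 rose by 2.10, 1.74 and 0.885 at its called probe sets, H2-DMa by 1.87 and Ifi30 by 1.03. The mean level of the class II list was 8.77, 8.96, 8.68 and 9.28 in KO and 8.08, 7.75, 7.93 and 8.09 in WT. With WT TCDD replicate 1 left out, none of the 7 genes passed. Of the class I genes, which all nucleated cells express, H2-K1 rose by 0.89 and H2-D1 by 0.66. Their choice followed a look at the values. The probe sets given here for H2-Aa, H2-K1 and H2-D1, and that of H2-Ab1 at 0.885, carry the suffix _x_at. Their probes can match related sequences.

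Lysosomal genes included the rise with the smallest p. Of 34 measured, 7 rose (Cd68, Ctsa, Ctsh, Ctsl, Ctsw, Ctsz and Grn) and 1 fell (Lipa), with a median difference of 0.28. Ctsl encodes cathepsin L, a protease of endosomes. It read 10.06, 10.03, 9.37 and 9.88 in KO and 7.63, 7.0, 6.94 and 6.97 in WT, a difference of 2.70 (SE 0.16, adjusted p 0.00735, limma, BH). The lowest KO value was 1.74 above the highest WT value, that of WT DMSO replicate 1. Grn, which encodes progranulin, read 8.75, 9.05, 8.58 and 8.96 in KO and 6.91, 6.44, 6.85 and 6.52 in WT. The difference was 2.15 (SE 0.15, adjusted p 0.0106, limma, BH). Cathepsins Z and H differed by 2.46 each, and 3 probe sets of Ctsz were called, at 1.67 to 2.46.

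Other proteases of the same compartment behaved differently in size. Ctsb and Ctsd, for cathepsins B and D, differed by 0.74 and 0.49 without passing (adjusted p 0.12 and 0.0743, limma, BH), and those for cathepsins S and C by -0.17 and -0.13. Lipa, lysosomal acid lipase, read 7.54, 7.24, 7.65 and 7.57 in KO and 8.34, 9.0, 8.73 and 8.92 in WT, a difference of -1.25 (SE 0.15, adjusted p 0.0222, limma, BH). Its KO values were all at least 0.69 below its WT values, and without the WT arrays numbered 2 the difference was -1.03. Without WT TCDD replicate 1, 4 genes of the lysosomal list stayed above the threshold and 0 below.

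**Figure D2:**
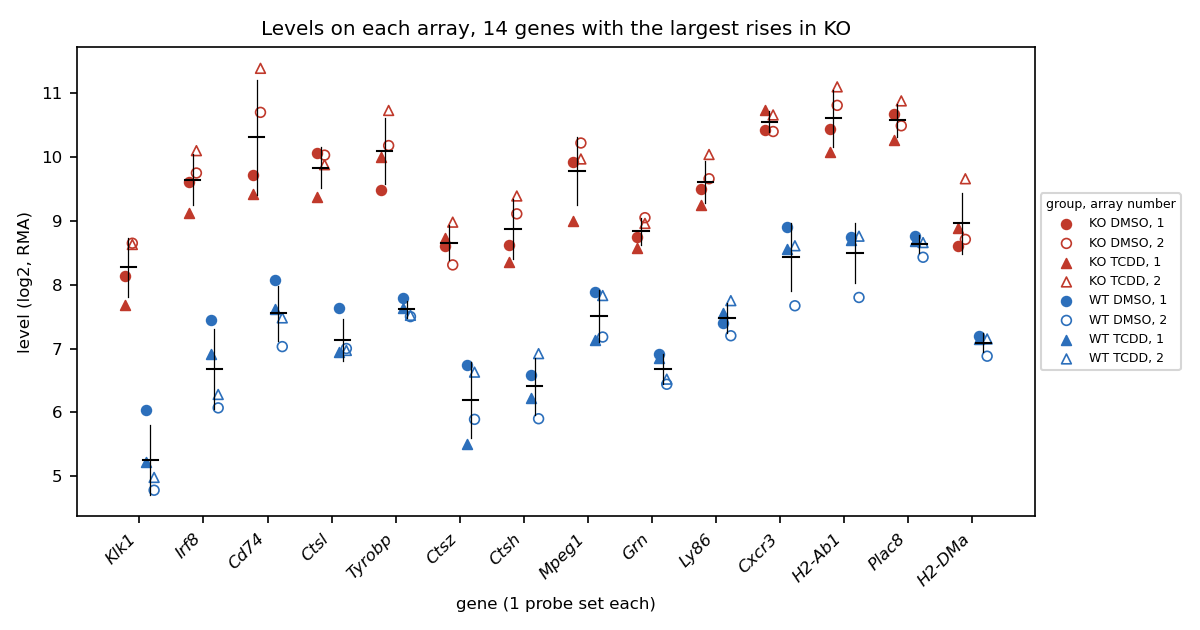
Levels (log2) of the 14 genes with the largest rises among called probe sets with a single gene symbol, 1 probe set each. Red marks are KO and blue marks WT, circles DMSO and triangles TCDD, filled for array 1 and open for array 2; bars give the mean and SD of 4 arrays. In every gene the 4 KO arrays lie above the 4 WT arrays, and Cd74 has the widest KO spread, 9.42 to 11.39.

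Of 34 measured markers of macrophages, monocytes and neutrophils, 7 rose (C1qb, C1qc, Cd68, Csf1r, Ly86, Mpeg1 and Tyrobp) and 0 fell. Tyrobp encodes DAP12, the signalling adaptor of many activating receptors on myeloid, dendritic and natural killer cells. It read 9.48, 10.18, 10.00 and 10.73 in KO and 7.79, 7.50, 7.64 and 7.52 in WT, a difference of 2.48 (SE 0.23, adjusted p 0.0106, limma, BH). Ly86, the MD-1 partner of the RP105 receptor, read 9.50, 9.66, 9.25 and 10.04 in KO and 7.40, 7.20, 7.56 and 7.75 in WT. That was a difference of 2.13 (SE 0.18, adjusted p 0.0106, limma, BH). In both genes the WT arrays were close together and KO TCDD replicate 2 was highest. Mpeg1, a pore-forming protein of phagocytes, rose by 2.27, Cd68, a lysosomal membrane protein, by 1.87, Csf1r, the receptor for macrophage colony-stimulating factor, by 1.27 at 1 of 3 probe sets, and C1qb, a chain of complement C1q, by 1.84 and 1.74 at 2 of 3. Both called C1qb probe sets carry the suffix _x_at. The one without it differed by 0.76 and was not called.

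The defining markers of these cells did not all share that direction. The lysozyme gene Lyz2 read 7.13, 7.84, 6.90 and 8.08 in KO and 6.72, 7.98, 6.95 and 7.77 in WT, with full overlap and a difference of 0.13 (adjusted p 0.889, limma, BH). Differences were 0.16 for Adgre1, which encodes F4/80, 0.08 for Itgam, -0.07 for Cd14, 0.01 for S100a9 and -0.65 for S100a8, and none passed. The list's median was 0.17, and its mean level was 6.72 to 6.93 in KO and 6.18 to 6.42 in WT. Of 20 markers of conventional dendritic cells, 3 rose: Relb, an NF-kappaB subunit, by 1.25, the lectin Clec10a by 0.95 and the transcription factor Batf3 by 0.60. Itgax, which encodes CD11c, differed by 0.37 and Zbtb46 by 0.21 without passing. Of 22 genes on the list of Fc receptors, ITAM adaptors and myeloid signalling, the receptors Cd300lf (1.49) and Cd300a (1.07) rose along with Tyrobp. Alox5ap, which is needed to make leukotrienes, rose by 1.84. With WT TCDD replicate 1 removed, the differences were 2.45 for Tyrobp, 2.13 for Ly86, 1.88 for Cd68 and 1.79 for C1qb, and these 4 genes of the macrophage list were still called. Mpeg1 (2.19) and Csf1r (1.31) were not, nor were Relb (1.24), Clec10a (0.99) and Batf3 (0.66), so 0 genes of the conventional dendritic cell list remained. On the Fc receptor list Tyrobp alone was still called.

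Markers of B cells did not move as a group. Of 21 measured, Ighm, the heavy chain of immunoglobulin M, alone rose, by 1.19 at 1 probe set. The B cell receptor chain Cd79a differed by -0.08, Ms4a1, which encodes CD20, by -0.33 and Pax5, the lineage factor, by -0.03. The list's median was 0.10. Its mean level was 6.87, 6.92, 6.79 and 7.15 in KO and 6.56, 6.76, 6.67 and 6.78 in WT, so the lowest KO array and the highest WT array nearly met. Of 21 markers of natural killer and CD8 T cells, Nkg7, a protein of cytotoxic granules, rose by 1.38, the inhibitory receptor Klrg1 by 1.31 and cathepsin W by 0.95. Klrg1 read 9.37, 9.25, 9.37 and 9.80 in KO and 7.96, 7.89, 8.39 and 8.32 in WT (adjusted p 0.0106, limma, BH). Klrg1 also marks some effector CD4 and regulatory T cells. Klrg1 was still called without WT TCDD replicate 1, at 1.34, whereas Nkg7 (1.30), Ctsw (0.96) and Ighm (1.21) were not. Cd8a differed by -0.15 and 0.02 at its probe sets, Ncr1 by 0.10, Prf1 by -0.24 and Eomes by -0.25, and none passed.

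The largest called rise, 3.33, belonged to a probe set annotated to more than 1 alpha globin gene, at 10.65, 11.69, 11.45 and 11.24 in KO and 7.86, 7.47, 9.09 and 7.30 in WT (SE 0.40, adjusted p 0.0211, limma, BH). KO DMSO replicate 1 was the lowest KO array and WT TCDD replicate 1 the highest WT array. All 4 probe sets annotated to several alpha or beta globin genes were called, at 2.23 to 3.33. Among the 10 measured genes of the red cell list with a probe set of their own, 1, Hbb-b2, rose, by 0.70, and the list's median was 0.14. The called Hbb-b2 probe set was dim, at 4.24 to 5.15, and carries the suffix _x_at. A brighter Hbb-b2 probe set, at 7.05 to 7.57, differed by 0.15 and was not called (adjusted p 0.484, limma, BH). The 4 probe sets annotated to several genes were still called without WT TCDD replicate 1, at 2.37 to 3.72, and Hbb-b2 (0.75) was not. The globin genes are close copies, so these values cannot be assigned to 1 of them.

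**Figure D3:**
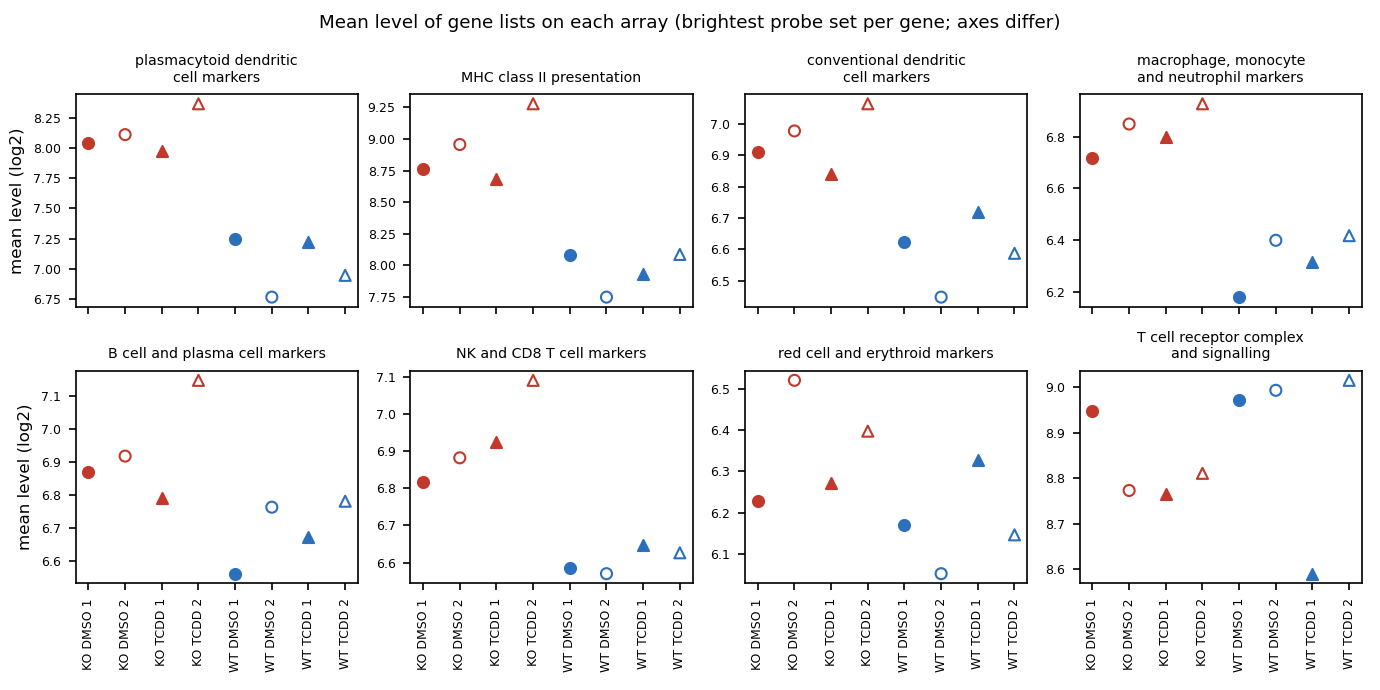
Mean level (log2, vertical axes, which differ between panels) of 8 gene lists on each array (horizontal axis), with 1 probe set per gene. Red is KO and blue WT, circles DMSO and triangles TCDD, filled for array 1 and open for array 2. The plasmacytoid dendritic cell list is at 7.97 to 8.37 in KO and 6.77 to 7.25 in WT, whereas the T cell receptor list overlaps between genotypes.

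The sorted cells carried T cell transcripts in both genotypes at levels that overlapped or nearly so. The CD3 chain Cd3e read 9.11, 9.45, 9.43 and 9.46 in KO and 9.46, 9.46, 9.64 and 9.55 in WT, a difference of -0.17 (adjusted p 0.37, limma, BH). The brighter Cd4 probe set read 8.11, 8.21, 8.06 and 8.26 in KO and 8.18, 8.11, 8.73 and 8.44 in WT, a difference of -0.20 (adjusted p 0.42, limma, BH). Of 27 genes of the T cell receptor complex and its signalling, 1 fell: Fyb, an adaptor that links the receptor to integrins, at 10.01, 9.81, 9.88 and 9.88 in KO and 10.47, 10.46, 10.52 and 10.78 in WT. Its difference was -0.66 (SE 0.09, adjusted p 0.0328, limma, BH), and without WT TCDD replicate 1 it was -0.69 and not called. The list's median was -0.09 and its mean level ran from 8.76 to 8.95 in KO and from 8.59 to 9.02 in WT. Some markers of other cell types rose in the same comparison, and their part in the differences of other genes was not tested.

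Among genes of T cell state, Cxcr3 stood out. This chemokine receptor of type 1 helper and memory T cells is also carried by plasmacytoid dendritic cells. It read 10.42, 10.40, 10.73 and 10.66 in KO and 8.90, 7.67, 8.56 and 8.61 in WT, a difference of 2.12 (SE 0.23, adjusted p 0.0186, limma, BH). The KO values spanned 0.33, and WT DMSO replicate 2 was the lowest of all. Without the WT arrays numbered 2 the difference was 1.82, and without WT TCDD replicate 1 it was 2.11 and not called (adjusted p 0.064, limma, BH). Of 14 type 1 helper genes Cxcr3 alone was called, and 13 of the 14 differences were positive with a median of 0.27. Those of the cytokine Ifng (2.08), the chemokine Ccl5 (1.22) and the transcription factor Tbx21 (1.07) did not pass, with adjusted p of 0.0718, 0.0543 and 0.075 (limma, BH). Of 30 activation and memory genes, 2 rose, Cxcr3 and the calcium-binding protein S100a4 (1.09). Of 38 cell cycle genes, the mitotic kinases Cdk1 (0.81) and Plk1 (0.38) and the survivin gene Birc5 (0.56) rose, each with a KO and WT spread of at most 0.14 (SD, n = 4). The median of that list was 0.28, and Mki67, a marker of dividing cells, differed by 0.28 without passing. Once WT TCDD replicate 1 was left out, the differences were 0.80 for Cdk1, 0.39 for Plk1, 0.57 for Birc5 and 1.11 for S100a4, and 0 genes of the type 1 helper, activation and cell cycle lists were called.

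No gene of the naive and resting T cell list was called, although its median difference, -0.61, was the lowest of the 30 lists. Only 3 of its 19 genes had a positive difference. The median was -0.34 without the WT arrays numbered 2. Foxo1, which keeps T cells quiescent and homing to lymph nodes, differed by -1.23 (adjusted p 0.0605, limma, BH), its target S1pr1, the receptor for exit from lymphoid organs, by -0.69, and the interleukin 7 receptor gene Il7r by -0.64. The homing receptor Ccr7 differed by 0.81, in the other direction, and did not pass. Of the other helper programmes, 0 of 13 type 2, 0 of 14 interleukin 17 and 0 of 13 follicular helper genes were called, with medians of 0.12, 0.07 and -0.06. Of 20 regulatory T cell genes Klrg1 alone was called. Foxp3, their lineage factor, differed by 0.04 and Il17a by 0.00. Of 24 type I interferon response genes, Bst2 alone rose, and the list's median was -0.005. Bst2 was at 1.80 and not called without WT TCDD replicate 1.

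**Figure D4:**
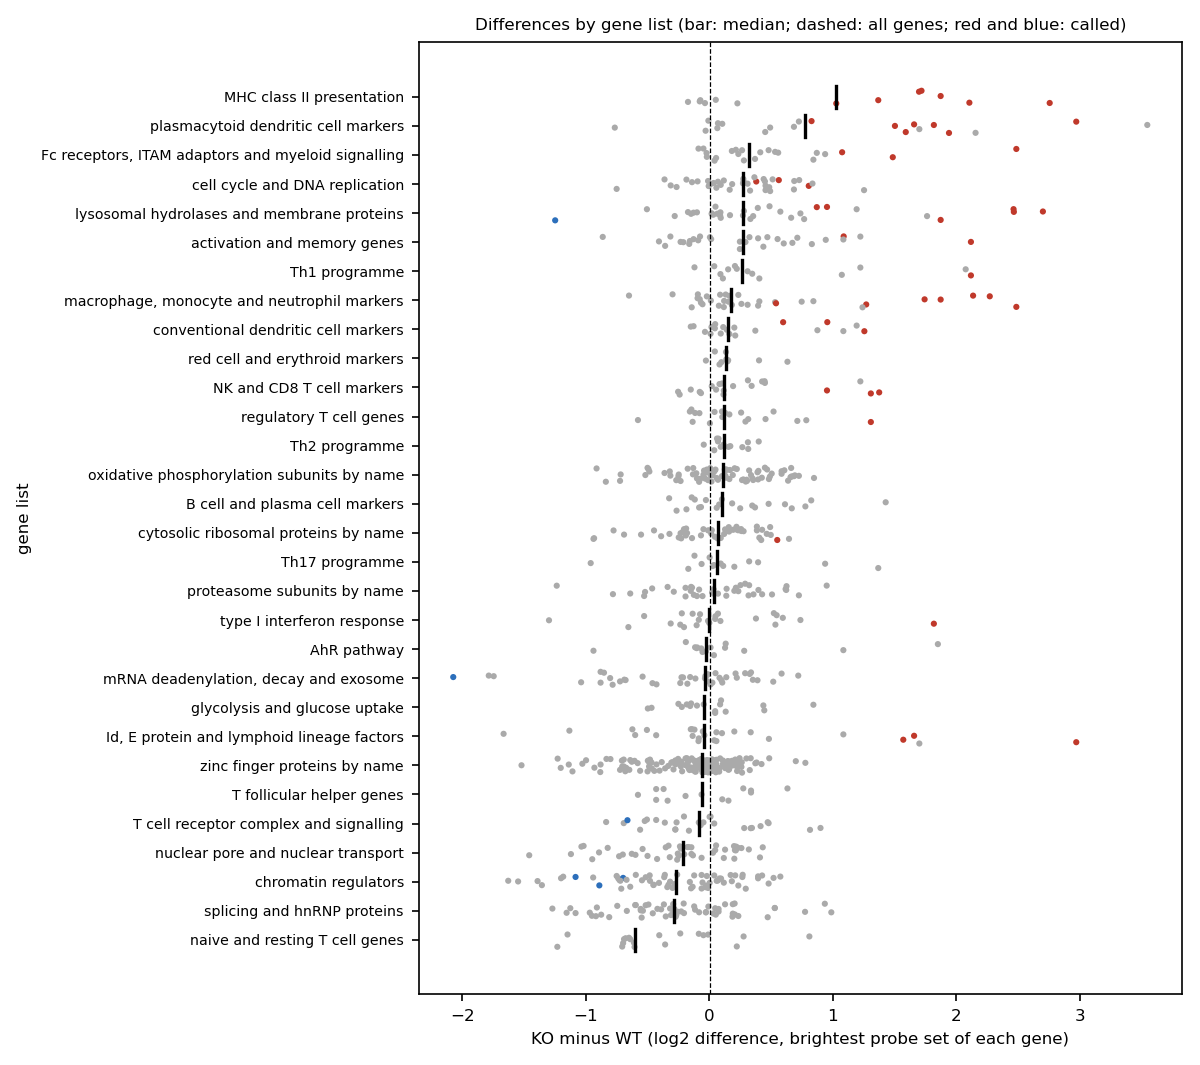
KO minus WT difference (horizontal axis, log2) of each measured gene in 30 gene lists (vertical axis), at the gene's brightest probe set. Black bars are list medians, the dashed line is the median of all genes, and red and blue points are genes whose brightest probe set was called higher or lower. The class II list has the highest median, 1.03, and the naive T cell list the lowest, -0.61, with no called gene.

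The largest called fall was that of Cnot7, a deadenylase of the CCR4-NOT complex, which shortens the poly(A) tails of mRNA. It read 7.15, 6.61, 6.66 and 6.79 in KO and 8.42, 9.62, 8.37 and 9.09 in WT, a difference of -2.07 (SE 0.28, adjusted p 0.0303, limma, BH). The WT arrays numbered 2 were the highest, and without them the difference was -1.59. Ankhd1, an ankyrin repeat and KH domain protein, read 7.23, 6.88, 6.87 and 6.95 in KO and 8.21, 9.14, 8.79 and 9.40 in WT, a difference of -1.90 (SE 0.24, adjusted p 0.0252, limma, BH). It was -1.52 without the WT arrays numbered 2. Such a WT split was frequent among the falls. In 40 of the 74 (54.1%) array 2 exceeded array 1 in WT under both treatments, against 24.4% of all probe sets. Among the 125 rises, 58 (46.4%) had array 2 below array 1 in both, against 40.0% of all. What sets these arrays apart was not tested.

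Skil was among the falls without that split. It encodes SnoN, a repressor of transforming growth factor beta signalling. It read 9.12, 8.66, 8.49 and 8.89 in KO and 10.22, 10.20, 10.20 and 10.04 in WT, a difference of -1.38 (SE 0.13, adjusted p 0.0115, limma, BH). Its WT values spanned 0.18. Marchf7, a ubiquitin ligase, read 7.05, 7.12, 6.82 and 6.92 in KO and 7.92, 8.17, 8.35 and 8.26 in WT. Its difference was -1.20 (SE 0.12, adjusted p 0.0139, limma, BH). Myh9, the heavy chain of a non-muscle myosin, read 8.40, 8.35, 8.12 and 8.01 in KO and 9.68, 9.02, 9.98 and 9.50 in WT, a difference of -1.32 (SE 0.21, adjusted p 0.0431, limma, BH). In Myh9 the WT arrays numbered 2 were the lower, and without them the difference was -1.61. Without WT TCDD replicate 1 the differences were -2.23 for Cnot7, -1.97 for Ankhd1 and -1.16 for Myh9, none of them called, and -1.33 for Skil and -1.13 for Marchf7, both still called.

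Eif5, the factor that triggers GTP hydrolysis at the start codon, fell by 1.42, with 8.10, 8.00, 8.46 and 8.11 in KO and 9.32, 9.90, 9.38 and 9.73 in WT (adjusted p 0.0201, limma, BH). Further falls of at least 2-fold by the naming rule were those of Pdcl, a chaperone cofactor of G protein subunits (-1.73), Zmym5, a zinc finger protein (-1.70), Naa15, a subunit of the amino-terminal acetyltransferase NatA (-1.64), Wac, an adaptor in histone H2B ubiquitination (-1.54), Trp53inp1, a p53-induced protein (-1.31), Agfg1 (-1.30), Lsm14b, an mRNA-binding protein (-1.29), Phip (-1.18), Ola1, an ATPase (-1.13), the small GTPase gene Rab14 (-1.11) and Pde4b, a phosphodiesterase that breaks down cAMP (-1.04). The fall of Pdcl rested on the widest KO spread among these, 4.67 to 5.87. Smaller falls among the named genes were those of Cramp1l (-0.99), the deubiquitinase gene Usp7 (-0.97), the helicase gene Dhx40 (-0.96) and the cohesin subunit gene Stag1 (-0.96). Eif5 (-1.51) and Phip (-1.31) were still called without WT TCDD replicate 1, and the others named here were not.

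**Figure D5:**
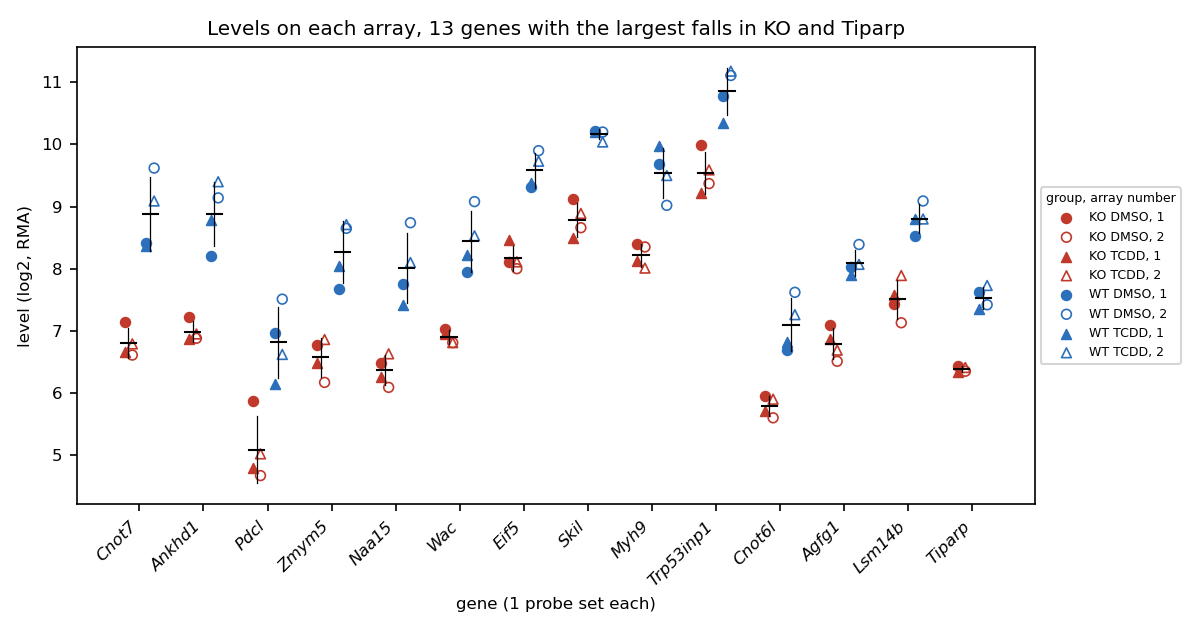
Levels (log2) of the 13 genes with the largest falls among called probe sets with a single gene symbol, and of Tiparp. Red marks are KO and blue marks WT, circles DMSO and triangles TCDD, filled for array 1 and open for array 2; bars give the mean and SD of 4 arrays. The KO arrays lie below the WT arrays in every gene, and in Cnot7 the open WT marks, 9.62 and 9.09, lie above the filled ones.

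Lists of nuclear and RNA functions had medians below 0, and each held 1 to 3 genes called lower and 0 called higher. Of all 12393 measured genes, 69 (0.557%) were called lower. Of 43 genes of mRNA deadenylation, decay and the exosome, 2 fell, Cnot7 and its partner enzyme Cnot6l (-1.31), and the median was -0.03. Of 64 chromatin regulators 3 fell: Smarca5, the ATPase of ISWI remodelling complexes, by 1.08 and 0.90 at its called probe sets, the acetyltransferase gene Kat6a by 0.89 and the histone demethylase gene Kdm3b by 0.70. The median of that list was -0.27. Kdm3b read 8.41, 8.17, 8.20 and 8.23 in KO and 8.87, 8.90, 9.0 and 9.03 in WT (adjusted p 0.0222, limma, BH), and its WT values spanned 0.16. Of 61 splicing and hnRNP genes, Rbm25 fell by 0.82 and the U2 component Sf3b1 by 0.48 at 1 of its probe sets, with a list median of -0.28. Of 44 nuclear pore and transport genes, the scaffold gene Nup133 fell by 0.85, with a median of -0.22. Without WT TCDD replicate 1, and without both WT arrays numbered 2, 0 genes of these 4 lists were called. Without the latter arrays the medians of the chromatin, splicing and nuclear pore lists were -0.17, -0.15 and -0.15.

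Housekeeping lists moved little with both treatments pooled. Of 51 cytosolic ribosomal proteins 1 was called, Rps9 (0.55), with a list median of 0.07. Of 78 oxidative phosphorylation subunits 1 was called, Ndufs8 (0.78), with a median of 0.11. Of 39 proteasome subunits and 17 glycolysis genes, 0 were called, with medians of 0.04 and -0.05. The proteasome median was -0.095 in DMSO and 0.27 in TCDD arrays. Of 173 genes named as zinc finger proteins, a list of another kind, 0 were called, with a median of -0.06 and 61 positive differences. Of its 254 probe sets, 29 had every KO array below every WT array and 5 every KO array above. Over all probe sets the shares were 6.67% and 5.67%. The called probe sets of Rps9 and Ndufs8 carry the suffix _x_at. Neither Rps9 (0.495) nor Ndufs8 (0.73) was called without WT TCDD replicate 1.

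The following single genes were called but lie outside the naming rule. They were chosen after their values were seen and support no group. Ccnd1, which encodes cyclin D1, rose by 1.52, Cd5l, a secreted protein of macrophages, by 1.51, Fcna, a ficolin of macrophages, by 1.05 and Cd209d, a lectin related to DC-SIGN, by 0.64. The GTPase Rac2 rose by 1.27, the focal adhesion protein gene Pxn by 1.22 and 1.18, Pik3cg, a phosphoinositide 3-kinase of leukocytes, by 1.14, and the SLAM family receptor genes Ly9 and Slamf7 by 1.19 and 0.72. Creld2 rose by 1.25, Ppib, which encodes cyclophilin B, by 1.06 and 0.91, and Edem2 by 1.04. Kmo, an enzyme of the kynurenine route of tryptophan breakdown, rose by 0.98. Falls chosen in the same way included Tab2 (-0.94), Ikbkg, which encodes NEMO (-0.83), the ubiquitin ligase gene Itch (-0.42), and Irf2 (-0.71), a transcription factor that competes with Irf1.

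The genotype difference was tested for dependence on treatment. The interaction of genotype and treatment called 0 probe sets in limma, with a lowest adjusted p of 0.998 (BH), and 628 had an unadjusted p under 0.05. Among the 199 called probe sets, 14 had an unadjusted interaction p under 0.05. With 2 arrays a group this does not show that the differences are alike. Over the rises the median difference was 0.98 in DMSO arrays and 1.23 in TCDD arrays, and over the falls it was -0.85 and -0.84. Across all probe sets the differences in DMSO and in TCDD, which share no array, correlated at 0.654, and 63.4% had the same sign. Probe sets are not independent of each other. Each difference also rests on a WT array numbered 2, and deviations of same-numbered arrays correlated at 0.626 between the WT groups. The correlation of 0.654 thus cannot be read as a replication of the genotype difference. Taken alone in the model of 4 group means, the DMSO contrast called 0 probe sets in limma, with 2384 at an unadjusted p under 0.05, and the TCDD contrast called 13 (0.0575%), 12 higher and 1 lower, of which 6 were among the 199. Cdk2ap2, an inhibitor of a cell cycle kinase, had the largest split among the 25 largest rises, 1.07 in DMSO and 2.37 in TCDD.

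Many genes were measured by more than 1 probe set, and those were not always called together. Of the genes that rose, 38 had 94 further probe sets that were not called, of which 76 differed in the same direction, with a median of 0.32. Of the genes that fell, 58 had 119 further probe sets, 106 of them in the same direction, with a median of -0.24. Of these uncalled probe sets 31 and 47 lay below 6.13, the median over all probe sets. More than 1 called probe set was found for 8 of the genes that rose and for 1 of those that fell, Smarca5.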

How the data were processed

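Per the submitters' processing notes, the authors made the deposited log2 values with RMA from the affy package; versions are not given in the sources used here. RMA corrects background, normalizes the arrays to each other by quantiles and combines the probes of a set. The array medians and ranges were checked to lie on a log2 scale. The number of arrays limits the precision.

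Samples were grouped by title. Of the tested probe sets, 20380 had 1 gene symbol in the platform annotation, 691 had several and 1555 none, and no gene was named from the latter kinds. KO was compared with WT in limma 3.58.1 (R 4.3.3; lmFit, eBayes) with treatment as a covariate and BH adjustment over 22626 probe sets. The interaction and the contrasts within a treatment came from a model of 4 group means. Single measures were compared by an exact permutation test over 70 arrangements. P-values measure the spread between these pools.

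The genes named were a fixed set around Ahr, the 25 largest rises and falls among called probe sets that did not overlap between genotypes, up to 6 called members per list, genes still called without both WT arrays numbered 2 (0 genes), genes called in both treatments separately (0 genes) and defining cell type markers. Rises and falls were ranked at each gene's called probe set with the largest absolute difference. The gene lists, 30 in all, are described by counts and by medians at the brightest probe set of each gene, with no test. The comparison, lists and rules were chosen with earlier results of these data known. Promoters are RefSeq windows of GRCm38.p6, matched by symbol, and no build is given for the array.

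The fit was tested on simulated data with 200 changed probe sets in each of 20 runs. Alternatives were another model, scaling, filter or variance setting, array weights, the actin measure as a covariate, a replicate block, and arrays left out.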

Additional observations from a re-analysis of the deposited data

Results flagged for a closer look

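Among 170 sets of 4 KO or 4 WT values of the called named probe sets and array measures, 9 (5.29%) had 1 array that stood far from the other 3, by Dixon's ratio of gap to range. Chance gives about 1 in 20 for independent sets. These sets are not independent, and a call depends on the spread within a genotype, so that rate is no yardstick here. In WT, DMSO replicate 2 was low for the class II genes H2-Ab1 (7.80), H2-DMa (6.88) and H2-Eb1 (8.76). WT DMSO replicate 1 was high for Ctsl (7.63). WT TCDD replicate 1 was low for Phip (7.33) and high for C1qb at 1 probe set (6.38), and WT TCDD replicate 2 was high for C1qb at another (4.89) and low for Skil (10.04). In KO, TCDD replicate 2 was high for Cd300lf (9.27). In each of these genes the KO and WT arrays did not overlap, which held for all 199 called probe sets.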

How the results depend on the processing

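The counts of calls depended on the model, and the direction of the 199 called probe sets, which their lack of overlap fixes, says nothing about stability. Against 125 rises and 74 falls, limma with BH adjustment gave 360 and 271 without the treatment covariate, 492 and 810 with the actin measure as a covariate, 710 and 460 with array weights, 318 and 224 after another quantile normalization, and 231 and 205 without probe sets below the median level. The model of 4 group means gave 123 and 38, trend and robust eBayes 102 and 40, median centring 132 and 50, and 1 probe set per gene 105 and 54. The DMSO arrays alone, the TCDD arrays alone and the DMSO contrast each gave 0 and 0, with 1545, 2832 and 2384 probe sets at an unadjusted p under 0.05, and the TCDD contrast gave 12 and 1. Without both WT arrays numbered 1 there were 457 and 1083 calls, and without both numbered 2 there were 0 and 0. Leaving out 1 array gave 12 to 140 rises and 0 to 70 falls. The cause of these shifts was not tested.

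With a replicate block there were 119 rises and 52 falls, 130 of them among the 199. The replicate numbers are not said to mark a shared batch. Deviations of same-numbered arrays correlated at 0.626 between the WT groups, 0.118 between the KO groups and -0.293 to 0.216 between genotypes. They were above 0.1 in 4 of the 6 pairs of groups, so not in all, and the numbers were not taken as pairing arrays across the 4 groups, although same-numbered WT arrays deviated together. The interaction stayed at 0 calls in all 14 alternatives fitted for it. Of the 199, 199 were still called with the actin covariate and with array weights, 191 after quantile normalization, 170 with median centring, 122 in the group means model and 128 with trend and robust eBayes.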
